A study of Rattus norvegicus with 2 samples.

Results

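The regions described here are the DBP peaks on chromosomes 7, 10 and 12 of the rat, in INS1 832/13 cells. They number 405 of the 2234 peaks in the list, or 18.1%, with 175 on chromosome 7, 159 on chromosome 10 and 71 on chromosome 12. The 3 chromosomes were chosen by their measured density of peaks, so the density itself is given as a description and supports nothing. Counted to the last peak, they carried 1.20, 1.41 and 1.36 peaks per Mb. The nearest values outside the choice were 1.23 per Mb on chromosome 1, which is above chromosome 7, and 1.07 per Mb on chromosome 20.

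The D-site binding protein DBP, first named for the albumin promoter, belongs to the transcription factors of the PAR bZIP family, with TEF and HLF as its close relatives. These proteins bind as dimers to a short palindromic element, the D-box. The repressor NFIL3 (E4BP4) competes for the same element. The circadian clock drives DBP through E-boxes bound by CLOCK and BMAL1, so DBP passes the daily rhythm on to output genes. In pancreatic beta cells the clock is known to take part in the timing of insulin secretion.

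INS1 832/13 is a clone of a rat insulinoma line that secretes insulin in response to glucose. The labels list 2 libraries, 1 pulled down with an antibody against DBP and 1 input library with no antibody, both from fixed cells of this one line with no further treatment named. The values are peak positions in the DBP library on build rn6, with no score, summit or read count, so depth is unknown and peaks cannot be ranked by strength. With 1 library there is no replicate error. Intervals are 95% intervals for counting error only and treat peaks as independent, which neighbouring peaks may not be. No value below was tested, because peaks of 1 library are not replicates.

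The counts along each chromosome are described first. On chromosome 10 full bins of 5 Mb stood in several places along its length. On chromosome 7 the 2 fullest bins lay near opposite ends. On chromosome 12 no 2 full bins were neighbours when bins were counted from the first base. Each chromosome was cut into whole bins of 5 Mb, from its first base to the last bin that ended before the last peak, and a peak was counted at its midpoint. The other 18 chromosomes gave 473 such bins, with a mean of 3.74 ± 3.28 peaks (SD over bins), a median of 3 and a maximum of 26, and 55 of them (11.6%) were empty. None of the 61 bins of chromosomes 7, 10 and 12 was empty, which their choice by density favours. Chromosomes 11, 14 and 20 had no empty bin either, and on chromosome 1 there were 2 of 55.

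On chromosome 7, 29 whole bins held 173 peaks, between 1 and 25 per bin, with a median of 5 and a mean of 5.97 ± 5.48 (SD over bins). The fullest bin, from 140 to 145 Mb, held 25 peaks. The next, from 10 to 15 Mb, held 19, and the third, from 75 to 80 Mb, held 12. Together the fullest and the next bin carried 44 peaks, 25.4% of those in whole bins. They lie near opposite ends of the chromosome, and among the 473 bins elsewhere only 2 held 25 or more, both on chromosome 1. The variance of the count over bins was 5.03 times the mean, above that of each of the other 20 chromosomes, of which chromosome 1 came closest at 4.38.

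Outside its 3 fullest bins, chromosome 7 held between 1 and 11 peaks per bin. Bins on both sides of the one at 10 to 15 Mb held 2 peaks each. From 25 to 75 Mb the 10 bins held between 1 and 8 peaks. Towards the end of the chromosome, counts of 10, 9, 2, 11, 9 and 25 followed each other in the 6 bins from 115 to 145 Mb. With the stretch to the last peak cut into 4 equal parts of 36.4 Mb, the last part held 69 peaks, or 39.4%, at 1.90 per Mb. The second part held 25 peaks, at 0.688 per Mb, which is below the median chromosome outside the 3 at 0.823 per Mb. The last and the second part thus differed by 2.76-fold.

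On chromosome 10, 22 whole bins held 157 peaks, between 1 and 16 per bin, with a median of 7 and a mean of 7.14 ± 4.65. That median was above the median bin of each of the other 20 chromosomes. Its fullest bins held 16 peaks (85 to 90 Mb), 15 (15 to 20 Mb) and 14 (80 to 85 Mb). Full bins stood in several separate places, with 12 and 15 peaks from 10 to 20 Mb, 9 from 35 to 40 Mb, 9 and 12 from 55 to 65 Mb, 14 and 16 from 80 to 90 Mb and 11 from 105 to 110 Mb. Thin bins lay between them, for example 1 peak from 40 to 45 Mb and 2 from 70 to 75 Mb. The 4 equal parts of the chromosome held 37, 29, 45 and 48 peaks, a range of 1.66-fold.

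On chromosome 12, 10 whole bins held 68 peaks, between 2 and 17 per bin, with a median of 4 and a mean of 6.80 ± 5.09. In order from the start the bins held 3, 11, 3, 5, 11, 3, 2, 17, 3 and 10 peaks. No 2 of the 4 full bins, those with 10 or more, were neighbours. They held 49 peaks, 72.1% of those in whole bins, and the other 6 held 2 to 5 each. On the scale of 4 equal parts this pattern was not visible, since these held 16, 18, 18 and 19 peaks. The order of full and thin bins also depends on where the bins begin. With bins beginning at 2.5 Mb, 77.8% of them held more than the median bin of the other 18 chromosomes, beside 50.0% here.

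**Figure D1:**
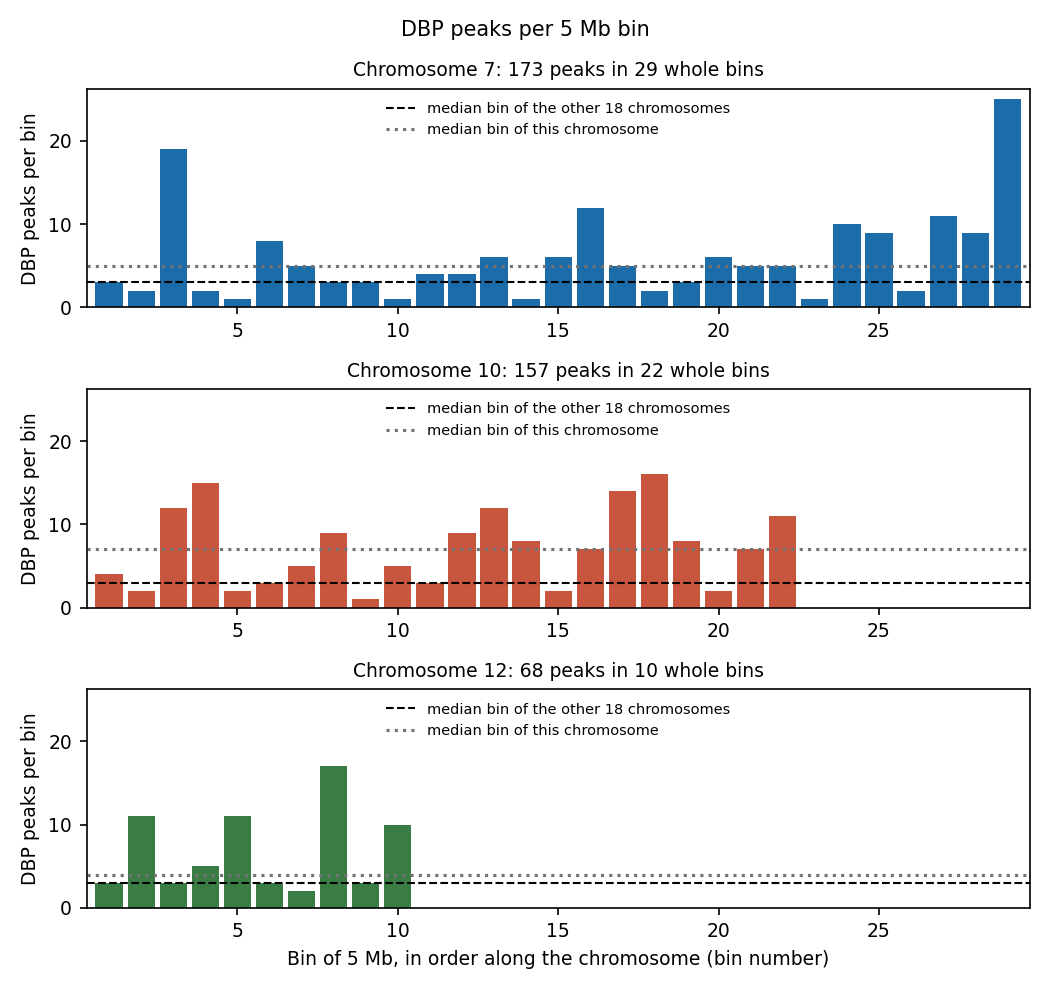
Bars give the number of DBP peaks in each whole 5 Mb bin, in order along chromosomes 7, 10 and 12. The dashed line is the median bin of the other 18 chromosomes (3 peaks) and the dotted line that of the chromosome itself (5, 7 and 4 peaks). Chromosome 7 shows bins of 19 and 25 peaks near its ends and chromosome 10 several separate rises. On chromosome 12 the fullest bins are separated by thin ones.

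The typical bin of each chromosome was then set beside that of the others. More than 3 peaks, the median of the other 18 chromosomes, were found in 17 of 29 bins on chromosome 7 (58.6%, exact Clopper-Pearson interval 38.9 to 76.5%). The count was 15 of 22 on chromosome 10 (68.2%, 45.1 to 86.1%) and 5 of 10 on chromosome 12 (50.0%, 18.7 to 81.3%). Over all 21 chromosomes 46.1% of bins passed this level. Of the 3, chromosome 10 was farthest from that share, and all 3 intervals include it. Chromosome 1 was higher than chromosome 10, at 70.9% (57.1 to 82.4%), and chromosome 20 was at 66.7%. On the other 18 chromosomes alone the share was 44.2%. This lies just below the interval of chromosome 10 and inside those of chromosomes 7 and 12. Of the bins on chromosome 12, 4 held exactly 3 peaks and 1 held fewer. At least 9 peaks, a level chosen with the counts known, were held by 7, 8 and 4 bins of chromosomes 7, 10 and 12 (24.1, 36.4 and 40.0%), beside 9.18% of all bins. On chromosome 1 it was 18.2% of bins. The counts on chromosomes 7, 10 and 12 come from the density that chose them, so nothing is read from these counts.

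How much of each chromosome's density rested on its fullest bins was described by leaving them out. With all bins, the mean count was 1.59 times that of the other 18 on chromosome 7 (exact conditional binomial interval 1.36 to 1.86), 1.91 times on chromosome 10 (1.61 to 2.25) and 1.82 times on chromosome 12 (1.40 to 2.32). Without the fullest bin the ratios were 1.41, 1.79 and 1.51. Without the 3 fullest bins, chromosome 10 stood at 1.58 times the others (1.29 to 1.91). Chromosome 7 came to 1.20 (0.989 to 1.45) and chromosome 12 to 1.11 (0.739 to 1.60), and both intervals include 1. For chromosome 7 this depended on the setting. Its ratio was 1.23 (1.01 to 1.48) with bins beginning at 2.5 Mb, 1.33 (1.02 to 1.72) among peaks wider than the median of the list and 1.32 (1.08 to 1.59) beside the others without chromosome 1, and these intervals lie above 1. The difference between chromosomes 7 and 10 was not tested. Leaving bins out on these chromosomes alone lowers their ratios by construction, and 3 bins are a larger part of chromosome 12 than of the others.

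When the fullest 20% of bins were left out on every chromosome, the mean of the other 18 was 2.69 peaks per bin. The 3 chromosomes then kept 3.78, 5.56 and 5.00 peaks per bin. The ratios were 1.40 on chromosome 7 (1.12 to 1.75), 2.06 on chromosome 10 (1.66 to 2.54) and 1.86 on chromosome 12 (1.32 to 2.55). On chromosome 12 this leaves out only 2 of 10 bins, so that 2 of its 4 full bins remain. These ratios come from the density that chose the chromosomes, so nothing further is read from them.

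**Figure D2:**
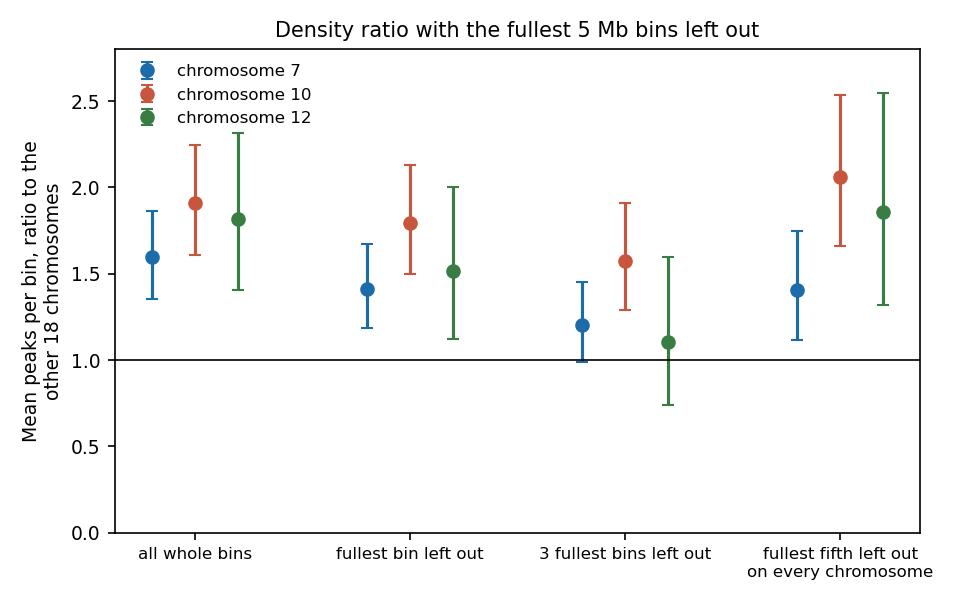
Points give the mean number of DBP peaks per 5 Mb bin on chromosomes 7, 10 and 12 divided by that of the other 18 chromosomes, and bars give 95% intervals for counting error. From left to right all bins were used, or the fullest, the 3 fullest, or the fullest 20% on every chromosome were left out. With the 3 fullest left out, chromosomes 7 and 12 lie at 1.20 and 1.11 with intervals that include 1, and chromosome 10 lies at 1.58.

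Among the 3 chromosomes, the share of peaks held by the fullest 20% of bins was highest on chromosome 7 and lowest on chromosome 10 with 5 Mb bins. This order depended on bin size. With 2 Mb bins the shares were 53.0, 46.8 and 61.4% on chromosomes 7, 10 and 12, and with 10 Mb bins 39.9, 36.3 and 27.9%, so that chromosome 12 was highest in one setting and lowest in the other. On chromosome 7, 6 of 29 bins held 86 of 173 peaks, or 49.7% (exact Clopper-Pearson interval 42.0 to 57.4%). On chromosome 10, 4 of 22 bins held 57 of 157 peaks, or 36.3% (28.8 to 44.3%). On chromosome 12, 2 of 10 bins held 28 of 68 peaks, or 41.2% (29.4 to 53.8%). The other 18 chromosomes ranged from 30.9% on chromosome 11 to 63.6% on chromosome X, with a median of 42.5%. Chromosome 7 ranked 2 among the 21 chromosomes, chromosome 12 ranked 12 and chromosome 10 ranked 18. The 20% were rounded to whole bins, so the shares and ranks rest partly on this rounding. On chromosome 10 a further bin, with 12 peaks, equalled the last one counted. Thin chromosomes such as X reach a high share from few peaks. Chromosome 1 has a like mean of 6.18 peaks per bin, and its share was 45.6%.

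Inside its fullest bins, chromosome 7 held peaks at many separate places, and most of these peaks belonged to groups of 2 or 3. The 25 peaks from 140 to 145 Mb were spread over 4.63 Mb and formed 15 stretches when peaks less than 100 kb apart were counted as one group. Its 5 windows of 1 Mb held 3, 9, 4, 2 and 7 peaks, and no gap was longer than 0.688 Mb. Of the 25 peaks, 17 belonged to groups. The 19 peaks from 10 to 15 Mb formed 9 stretches and lay mostly in neighbouring windows of 8 and 7 peaks, and the fourth window held 0. Only 2 of these 19 peaks stood alone, and the other 17 belonged to groups of 2 or 3. In the bin from 75 to 80 Mb, 12 peaks formed 8 stretches, and 7 of them belonged to groups. Over the whole chromosome 41.1% of peaks belonged to groups, and bins picked for high counts hold more such peaks by construction.

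On chromosome 10 the 16 peaks from 85 to 90 Mb formed 12 stretches with no group larger than 2. Of these peaks, 8 belonged to 4 groups. The 5 windows of 1 Mb held 3, 4, 0, 5 and 4 peaks, and the longest gap was 1.49 Mb. The neighbouring bin from 80 to 85 Mb held 14 peaks in 9 stretches. The 15 peaks from 15 to 20 Mb formed 10 stretches over 3.62 Mb.

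In the fullest bins of chromosome 12 the peaks spanned less DNA than in those of chromosomes 7 and 10. The 11 peaks from 5 to 10 Mb all lay within 1.54 Mb and formed 5 stretches, and a single 1 Mb window held 9 of them. The 11 peaks from 20 to 25 Mb lay within 2.00 Mb and formed 7 stretches. Those from 35 to 40 Mb, 17 in all, covered 2.99 Mb and formed 11 stretches, and 1 window of 1 Mb held 7 of them. The last 2 windows of the bin from 5 to 10 Mb and the first 2 of the bin from 20 to 25 Mb held 0 peaks.

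**Figure D3:**
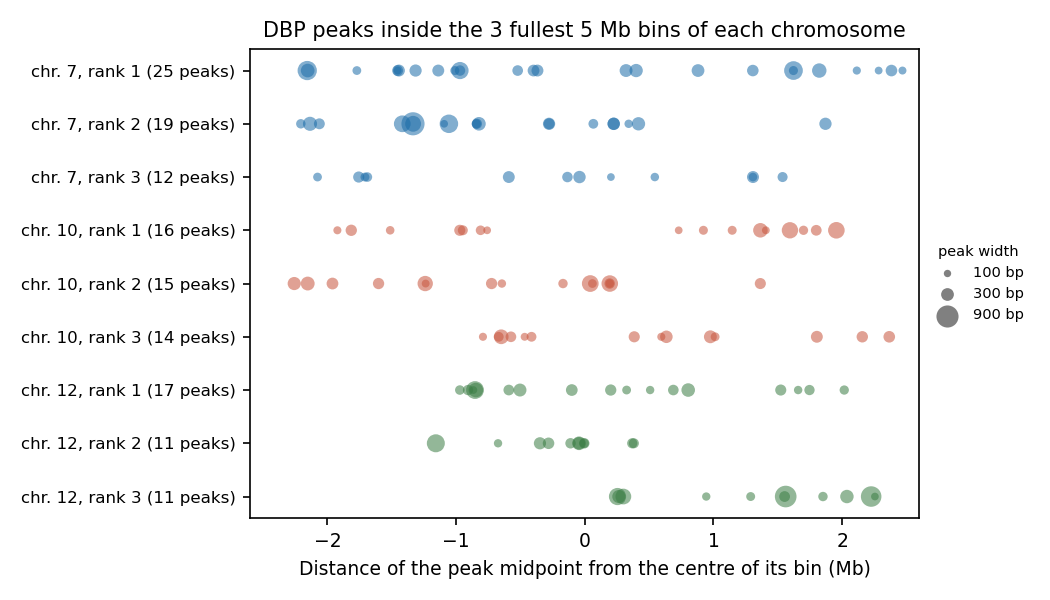
Each row is 1 of the 3 fullest 5 Mb bins of chromosomes 7, 10 and 12, and each point is a DBP peak at its distance in Mb from the centre of the bin, with the area of the point proportional to peak width. The 25 peaks of the fullest bin of chromosome 7 extend over 4.63 Mb, whereas the 11 peaks in the second bin of chromosome 12 lie within 1.54 Mb.

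Gaps between neighbouring peaks on these chromosomes were shorter than on the pooled other 18, as their density implies. Fewer than 100 kb separated 41 of 174 neighbouring pairs on chromosome 7 (23.6%, exact interval 17.5 to 30.6%), 44 of 158 on chromosome 10 (27.8%, 21.0 to 35.5%) and 19 of 70 on chromosome 12 (27.1%, 17.2 to 39.1%). The share over all 21 chromosomes was 18.9%, and over the other 18 it was 17.4% (15.7 to 19.2%). Chromosome 1, the nearest to them in density, had 26.9% (22.3 to 31.9%), and this interval overlaps those of all 3. Median gaps were 322, 298 and 277 kb, against 385 kb on chromosome 1 and 589 kb on the other 18. When each gap was instead compared with the mean gap of its own chromosome, 20.7% on chromosome 7, 21.5% on chromosome 10 and 24.3% on chromosome 12 were under 10% of that mean. The matching share on the other 18 was 19.5% (17.7 to 21.4%), which lies inside the interval of each of the 3 chromosomes (14.9 to 27.5%, 15.4 to 28.8% and 14.8 to 36.0%). On chromosome 1 it was 23.4%.

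The close pairs were also counted inside and outside the 3 fullest bins. On chromosome 10, 14 of 43 pairs inside the 3 fullest bins were under 100 kb apart (32.6%, 19.1 to 48.5%), and outside these bins 30 of 111 (27.0%, 19.0 to 36.3%). On chromosome 7 the shares were 24 of 53 inside (45.3%, 31.6 to 59.6%) and 17 of 115 outside (14.8%, 8.85 to 22.6%). On chromosome 12 they were 16 of 36 inside (44.4%, 27.9 to 61.9%) and 3 of 28 outside (10.7%, 2.27 to 28.2%). The other 18 chromosomes had 27.8% inside and 14.9% outside (13.0 to 17.0%). Bins picked for high counts have shorter gaps by construction, so the values inside and outside are set side by side and not compared. Chromosome 1 had 57.4% inside and 19.3% outside (14.7 to 24.5%). The intervals of the 3 chromosomes overlap one another both inside and outside, and no difference between them was tested.

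Groups with gaps under 100 kb held 72 of 175 peaks on chromosome 7 (41.1%), 79 of 159 on chromosome 10 (49.7%) and 31 of 71 on chromosome 12 (43.7%), against 42.9% on chromosome 1 and 30.0% on the other 18. Most groups were small. Chromosome 7 had 21 groups of 2 and 10 of 3 and no larger one. Chromosome 10 had 28 groups of 2, 5 of 3 and 2 of 4. Chromosome 12 had 9 groups of 2, 1 of 3 and 2 of 5, while the largest group on the other 18 chromosomes held 13 peaks. With each group or lone peak counted once, the mean count per bin was 1.47 times that of the others on chromosome 7 (1.22 to 1.76), 1.66 times on chromosome 10 (1.36 to 2.01) and 1.58 times on chromosome 12 (1.16 to 2.1). Ratios above 1 follow from the choice of the chromosomes by density. The variance over bins was then 2.32, 1.95 and 1.70 times the mean, beside 5.03, 3.03 and 3.82 with every peak counted. Joining close peaks takes most from full bins and so lowers this value by construction. It was not set beside that of the other 18 chromosomes, and nothing is read from its fall.

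By the rule for named regions, ties in size were broken by the shorter span. On chromosome 7, where 10 groups of 3 tie, the tightest spanned 10.2 kb at chr7:141045098-141055267, inside the fullest bin, and 12.5 kb at chr7:70270801-70283348, in a bin of only 6 peaks, while the longest of the 10 spanned 185 kb and their median was 76.0 kb. On chromosome 10 the groups of 4 spanned 100 kb at chr10:56529476-56629928 and 136 kb at chr10:104582607-104718726. Neither lay in one of the 3 fullest bins of that chromosome. On chromosome 12 the groups of 5 spanned 107 kb at chr12:7389084-7495780 and 125 kb at chr12:36528580-36653586, and both belonged to its 3 fullest bins. Genes there were not analysed here.

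At the closest range, gaps under 500 bp numbered 10 on chromosome 7 (5.75% of pairs), 6 on chromosome 10 (3.80%) and 2 on chromosome 12 (2.86%), against 2.98% on the other 18. The smallest gap was 62 bp on chromosome 7, between peaks of 277 and 289 bp at chr7:12724269-12724896. On chromosome 10 it was 54 bp, between peaks of 134 and 505 bp at chr10:17693665-17694357. On chromosome 12 it was 349 bp, between peaks of 286 and 345 bp at chr12:7454370-7455349. All 3 pairs lay in one of the 3 fullest bins of their chromosome. Bins picked for high counts hold more close pairs by construction, so nothing is read from this. In order of fullness, these bins held 3, 3 and 1 gaps under 500 bp on chromosome 7. They held 0, 2 and 0 on chromosome 10, where most such gaps lay elsewhere, and 0, 2 and 0 on chromosome 12.

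The longest stretch without a peak was 7.45 Mb on chromosome 7 (chr7:41438683-48886461), 5.66 Mb on chromosome 10 (chr10:37748495-43410557) and 5.20 Mb on chromosome 12 (chr12:31324830-36528579). These are 9.08, 7.99 and 7.07 times the mean gap of the same chromosome. The stretch on chromosome 12 ends at the first peak of its fullest bin and takes up 9.97% of the distance to the last peak. On chromosome 1 the longest gap was 9.89 Mb, beside a mean gap of 800 kb, so such stretches were not particular to the 3 chromosomes. Gaps over 3 Mb numbered 13 of 174, 7 of 158 and 6 of 70. There were 17 of 342 on chromosome 1 and 207 of 1811 on the other 18.

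Peaks on chromosomes 7 and 12 were somewhat wider than on the other 18 chromosomes, and those on chromosome 10 only slightly. Median widths were 218 bp on chromosome 7 (order-statistic interval 198 to 240 bp), 200 bp on chromosome 10 (182 to 233 bp) and 212 bp on chromosome 12 (193 to 253 bp), against 190 bp on the other 18 (184 to 195 bp). The middle 50% of widths ran from 145 to 279 bp, 144 to 274.5 bp and 160 to 316 bp. In the order of the 21 chromosomes by median width, chromosome 7 ranked 3, chromosome 12 ranked 4 and chromosome 10 ranked 7. Chromosomes 19 and 20 had higher medians, of 222 and 219.5 bp. Chromosome 1, the nearest in density, ranked 5 with 208 bp (192 to 228 bp), so such widths were not particular to the 3 chromosomes. The differences from the other 18, of 10 to 28 bp, are small beside the spread of widths within a chromosome, and the intervals of chromosomes 10 and 12 overlap that of the others.

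Wide peaks were frequent on chromosome 12. More than 500 bp was reached by 7 of 71 peaks there (9.86%, exact interval 4.06 to 19.3%), by 11 of 175 on chromosome 7 (6.29%, 3.18 to 11.0%) and by 5 of 159 on chromosome 10 (3.14%, 1.03 to 7.19%), against 3.40% of the whole list. The share on the other 18 chromosomes was 2.90% (2.18 to 3.77%), below the interval of chromosome 12. Chromosome 12 ranked 1 among the 21 chromosomes by this share, ahead of chromosome 19 at 9.43%, where 5 peaks were that wide. The share was 6.45% on chromosome 15, from 2 peaks, and 5.25% on chromosome 1 (3.14 to 8.17%), both near that of chromosome 7. The narrowest width in the list, 109 bp, was held by 1 peak on chromosome 12 (1.41%), 8 on chromosome 7 (4.57%) and 5 on chromosome 10 (3.14%), against 4.70% on the other 18.

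The widest peak of chromosome 7, 986 bp at chr7:11164248-11165233, belonged to a group of 3 in the bin of 19 peaks and had a neighbour 166 bp away. The second, 881 bp at chr7:60474236-60475116, had no other peak within 228 kb. On chromosome 12 the widest peaks, 863 bp at chr12:24060936-24061798 and 777 bp at chr12:24725202-24725978, both lay in the bin from 20 to 25 Mb, each in a group of 2. Chromosome 10 had none of that size. Its widest, 623 bp at chr10:74300172-74300794, stood 969 kb from its nearest neighbour in a bin of 2 peaks, and the second, 528 bp at chr10:56629401-56629928, was the last peak of the group of 4 named above.

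Peak width was also described by distance to the nearest peak. Peaks with a neighbour between 500 bp and 100 kb away had median widths of 230.5 bp on chromosome 7 (n = 52 peaks), 226 bp on chromosome 10 (n = 68 peaks) and 215 bp on chromosome 12 (n = 27 peaks). Peaks with none within 100 kb had medians of 201, 186 and 202 bp (n = 103, 80 and 40 peaks). On the other 18 chromosomes the medians were 203.5 and 186 bp. The intervals of grouped and lone peaks overlapped on each of the 3 chromosomes. Peaks less than 500 bp from another were few, with medians of 240, 175 and 244 bp (n = 20, 11 and 4 peaks).

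**Figure D4:**
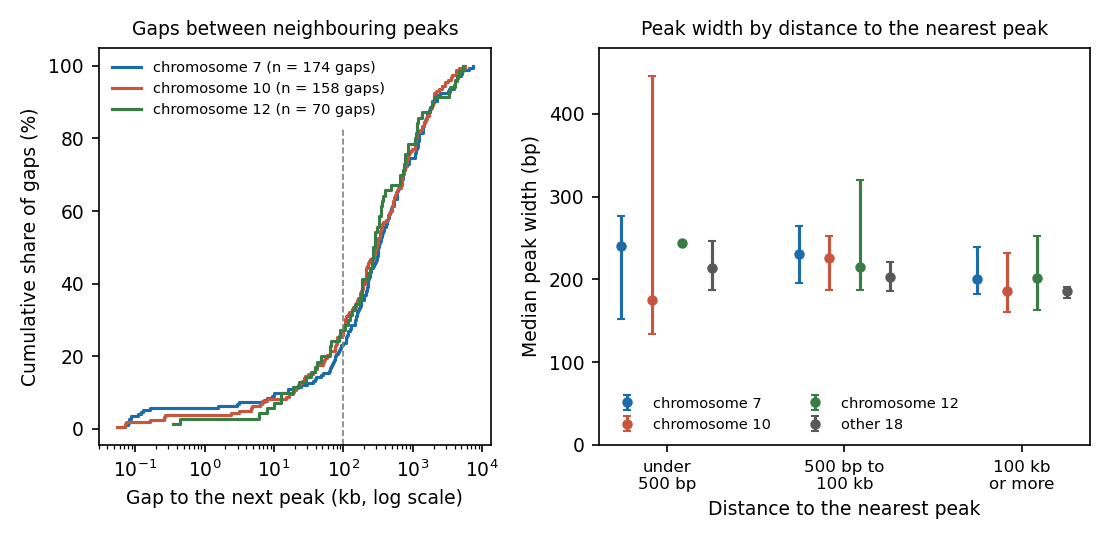
The left panel gives the cumulative share of gaps between neighbouring DBP peaks on chromosomes 7, 10 and 12 by length in kb on a log scale, with a dashed line at 100 kb, where 23.6, 27.8 and 27.1% of gaps are shorter. The right panel gives the median peak width in bp with its 95% interval by distance to the nearest peak, and the intervals drawn overlap on each of the 3 chromosomes. The 4 peaks under 500 bp apart on chromosome 12 are too few for such an interval and have none.

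The fullest bins did not hold wider peaks on all 3 chromosomes. In the fullest 20% of bins the median width was 219.5 bp on chromosome 7, 187 bp on chromosome 10 and 204.5 bp on chromosome 12. In the remaining bins it was 217, 205 and 224 bp. The other 18 chromosomes had 198 bp in their fullest bins (189 to 210 bp) and 184 bp in the rest (177 to 192 bp). Among them, chromosome 1 had 237 bp in its fullest bins (203 to 268 bp) and 192 bp in the rest (170 to 211 bp). On chromosome 7, 7 of 11 peaks wider than 500 bp lay in the fullest 20% of bins, which held 49.1% of its peaks. On chromosome 10 they were 3 of 5, where these bins held 35.8% of the peaks, and on chromosome 12 they were 2 of 7, where these bins held 39.4%. The values of chromosome 12 depend on how a tie was broken. Its bins from 5 to 10 Mb and from 20 to 25 Mb both held 11 peaks, and only the first was counted among the fullest. The bin from 20 to 25 Mb, left among the remaining bins, had a median width of 320 bp and 3 peaks over 500 bp.

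Single bins went different ways. On chromosome 7 the median width was 255 bp among the 25 peaks from 140 to 145 Mb (201 to 300 bp) and 277 bp among the 19 from 10 to 15 Mb (176 to 366 bp), but 178 bp among the 12 from 75 to 80 Mb (137 to 261 bp). On chromosome 10 it was 165 bp from 85 to 90 Mb (120 to 237 bp) and 234 bp from 15 to 20 Mb (141 to 354 bp). On chromosome 12 it was 207 bp in the bin of 17 peaks (159 to 253 bp) and 320 bp from 20 to 25 Mb (128 to 777 bp), where 3 of 11 peaks were wider than 500 bp. With 11 to 25 peaks in a bin, these intervals are wide, and each includes the median of its whole chromosome.

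Width and number together set the length of DNA under peaks. Peaks covered 294 bp per Mb on chromosome 7, 324 bp per Mb on chromosome 10 and 357 bp per Mb on chromosome 12, counted to the last peak, against 164 bp per Mb on the other 18 and 296 bp per Mb on chromosome 1. Chromosome 12 thus had the highest value of the 3, although chromosome 10 had more peaks per Mb.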

How the data were processed

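Per the labels' protocols, fixed chromatin was cut with micrococcal nuclease, sonicated and immunoprecipitated, and libraries were read from both ends. The authors deposited 1 peak list of the DBP library, which gives chromosome, start and end in base pairs and a numbered name. The submitters' processing notes name HISAT2 2.1.0, MACS2 2.2.7, HOMER 4.11.1 and build rn6. The sources used here give neither their settings nor the peak threshold or any use of the input, so the threshold could not be varied, and copy number, mappability and depth, which affect where peaks are called, were not tested. The input library and the sequence and genes of rn6 were not analysed here, so the planned motif and gene lists gave no result.

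Starts were converted to count from 1. Bins, gaps, groups, widths and intervals were computed with Python 3.11.15, pandas 2.3.3, NumPy 2.4.6 and SciPy 1.17.1, and the measures were checked on a made list with known answers. Named regions are, per chromosome, the 3 fullest bins, the 2 groups with most peaks, the 2 widest peaks, the closest pair and the longest empty stretch. The chromosomes, measures and alternatives were chosen with earlier results of these data known. No test was made, since each group has 1 library.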

Additional observations from a re-analysis of the deposited data

How the results depend on the processing

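Of 63 alternative values over 5 measures and 3 chromosomes, 53 stayed within the interval of the value given above and 10 did not. The share of peaks in the fullest 20% of bins changed with bin size. The order of the 3 chromosomes changed with it. The share was 39.9% on chromosome 7 and 27.9% on chromosome 12 with 10 Mb bins, and 46.8% on chromosome 10 and 61.4% on chromosome 12 with 2 Mb bins. Smaller bins hold fewer peaks and raise such a share by construction. The density ratio without the 3 fullest bins became 2.06 on chromosome 10 and 1.86 on chromosome 12 when the fullest 20% were left out on every chromosome instead. The share of pairs under 100 kb was 15.8% on chromosome 7 with peaks within 10 kb joined, 14.8% on chromosome 7 and 10.7% on chromosome 12 without the 3 fullest bins, and 19.5% on chromosome 10 among peaks wider than the median of the list. With bins beginning at 2.5 Mb, the share of bins above the others' median on chromosome 12 rose from 50.0 to 77.8%, within its wide interval. Median widths stayed within their intervals in all 9 alternatives. Depth is unknown, so a thin bin may hold binding that missed the threshold. Each of the groups has a single library, so nothing could be paired.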

Other observations

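The last whole 5 Mb bin before the last peak was rich in peaks on all 3 chromosomes, a feature singled out after the counts were seen. It held 25 peaks on chromosome 7, 11 on chromosome 10 and 10 on chromosome 12. On the other 18 chromosomes the matching bin held 0 to 7 peaks, with a median of 3.5. Peaks after the last whole bin are not counted here. They numbered 2, 2 and 3 on chromosomes 7, 10 and 12. On the other 18 chromosomes they numbered 1 to 8, the most on chromosome 20. The comparison thus depends on where the bins fall. The first bin held 3, 4 and 3 peaks on the 3 chromosomes, fewer than the last whole bin. Where these bins end relative to the end of the assembled chromosome was not analysed here.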
